A study of Ericerus pela with 2 samples.

Results

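The synaptic vesicle release machinery of male Ericerus pela, a scale insect that secretes wax, was followed from prepupa to pupa in 72 of the 120710 unigenes, the assembled transcript fragments on which the reads were counted. Unigenes were taken where the text of their best protein database match held at least 1 of 20 names of release proteins, such as synaptotagmin, syntaxin, complexin or neurexin. The series holds 2 RNA libraries of wild-type males, 1 from prepupae and 1 from pupae, both labelled with an age of 90 without a unit. The labels give the whole body as the tissue, while the design text names the retina. With 1 library per stage there was no replicate check, and no test across samples was possible.

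Synaptic vesicles store transmitter and fuse with the membrane at an active zone when calcium enters the nerve ending. Fusion is driven by SNARE proteins, readied by priming factors such as unc-13, and timed by synaptotagmin, the calcium sensor, together with complexin. The vesicle membrane is then retrieved by endocytosis, in which endophilin and synaptojanin take part, and refilled by vesicular transporters. During insect metamorphosis the nervous system is rebuilt and many synapses are formed anew.

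Matching by name caught 2 kinds of unigene. Of the 72, 49 were named for a protein of the synapse and are called synaptic members below. The other 23 named another protein. They comprised 7 unigenes of neurexin IV, 8 SNAREs placed with other membrane traffic, 2 of endophilin B1 and 1 VAT-1 homolog. The last 5 held the matched letters only in the sponge species name Suberites domuncula. This division was made by name and by the role given to each protein, after the values had been seen. The VAT-1 homolog, matched as a synaptic vesicle membrane protein, was put with the other proteins. Synaptotagmin-15 and unc-13-4A were kept as synaptic members. The 49 synaptic members had 37 different best matches, so 19 of them shared a database protein with another member. They may be fragments of 1 transcript or related genes. Among them 12 had their best match in the pea aphid Acyrthosiphon pisum and 9 in the ant Camponotus floridanus. The name is that of the best match, not of a gene shown to be its counterpart in this species.

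The names unc-18, rabphilin and RIM matched no unigene, and synaptobrevin, the SNARE of the vesicle, was met only in the name of YKT6, a SNARE of general membrane traffic. The 1 unigene named as a vesicle-associated membrane protein, the family of synaptobrevin, was a form of the Golgi and endosomes and had 2 prepupal reads and 0 pupal reads. Members were short, from 164 to 1809 bases with a median of 422.5. Gene Ontology terms, which the choice of members did not use, were deposited for part of them. A cellular component was given for 29 of the 49 synaptic members. Among these, 11 carried the term clathrin-coated vesicle, from unigenes of synaptotagmin, synapsin, unc-13, Munc13-3 and the vesicular amine transporter, and 8 carried axon part. The term endocytosis stood on 6, all of endophilin A or synaptojanin. None of the synaptic members carried septate junction, which stood on 4 of the 7 neurexin IV unigenes. Other terms crossed the division. Vesicle docking during exocytosis stood on 3 members, of neurexin IV and syntaxin-1A, and only 1 of them was synaptic. Regulation of neurotransmitter levels stood on 5 members, of which 4 were synaptic.

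The prepupal library held 2182108 uniquely assigned reads and the pupal one 1840877. Levels below are the deposited RPKM, which scales the reads of a unigene to its length and to the library total. Change was the log2 of pupal over prepupal RPKM with 1 added to each. It was taken where the 2 levels averaged at least 1 RPKM, and a unigene is called higher or lower if it changed 2-fold or more by this measure. Pairs of read numbers give the prepupal library first. The scale understates the change of low unigenes. By this rule of size 23.0% of all 113976 unigenes past the filter were higher in pupae and 39.4% were lower, and their median log2 ratio was −0.49. TMM scaling, which matches the bulk of unigenes between libraries, would multiply each fold by 1.316, or 0.396 in log2. With the 1 added, the log2 ratio moves by less than this in low unigenes. Centring on the median would add 0.491 to each log2 ratio. Folds are pupal over prepupal reads, each scaled to its library total, with the exact conditional binomial 95% interval, which covers counting error only.

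The labelled tissue was checked with marker names. Muscle markers held 7147 reads in prepupae and 12675 in pupae, fat body markers 1181 and 520, and gut markers 1476 and 1075. Retina markers had 19 of 29 unigenes higher and none lower, or 65.5% higher against 23.0% of all unigenes. They held 245 and 3358 reads, of which opsins, the visual pigments, held 6 and 382, and norpA matched none. Flightin, hexamerin and tektin matched no unigene.

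Of the 49 synaptic members, all of which passed the filter, 23 were higher in pupae, 4 were lower and 22 were neither. The share called higher was 23.0% over all unigenes and 14.7% over the 26856 with a database match, and the share called lower was 39.4% and 41.4%. The median log2 ratio of the synaptic members was 0.52, against −0.49 over all unigenes and −0.68 over those with a database match. Together they held 1148 prepupal and 2092 pupal reads, a 2.16-fold increase (2.01 to 2.32). This took their share of all reads from 0.0526% (exact binomial 95% interval 0.0496 to 0.0557) to 0.114% (0.109 to 0.119). Over the full 72 matched by name, 71 passed the filter, with 25 higher, 16 lower and 30 neither, and a median of 0.06.

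Many of these calls rested on few reads. Of the 33 synaptic members with at least 20 reads in both libraries together, 13 were higher and 3 lower. Of the 16 with fewer reads, 10 were higher and 1 was lower. The counting interval excluded no change for 17 of the 23 higher members and 3 of the 4 lower ones. Among the 26 with at least 50 reads, 12 were higher and 0 were lower. Of all unigenes with that many reads, 19.8% were higher and 36.2% lower, and of those that also had a match, 15.4% and 40.1%. With 1 library per stage this last 0 is a count by the rule of size and not the outcome of a test.

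Most of the increase in summed reads lay in the names with the largest folds, which were left out in turn after their values had been seen. Without the synaptic vesicle protein and the synaptotagmins, the summed reads of the remaining 37 synaptic members were 833 and 955, 1.36-fold higher (1.24 to 1.49). Without complexin as well they were 821 and 845, 1.22-fold higher (1.11 to 1.35), a fold of 1.605 under TMM scaling and 1.71 after centring. Of these last 36 unigenes 13 were higher and 2 lower, or 36.1% and 5.6%.

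**Figure D1:**
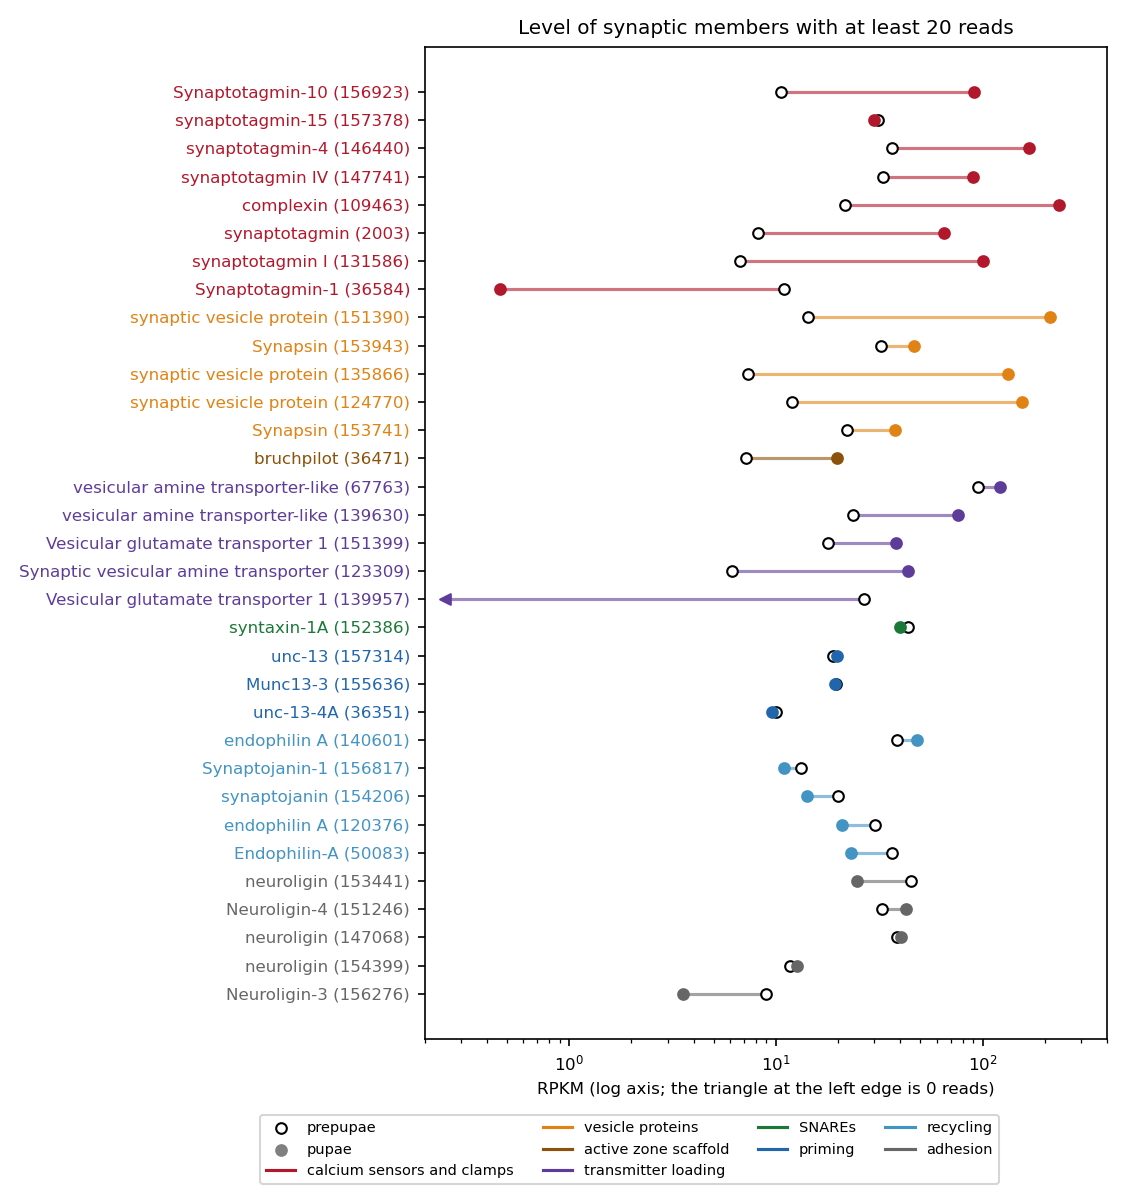
RPKM (log axis) of the 33 synaptic members with at least 20 reads, with open circles for prepupae, filled circles for pupae and colours for the role of the protein; numbers in brackets are unigene numbers. The pupal circles of complexin, most synaptotagmins and the synaptic vesicle protein lie to the right of the prepupal ones, those of syntaxin-1A and the unc-13 family lie close to them, and the triangle marks 1 vesicular glutamate transporter unigene at 0 reads in pupae.

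Calcium sensors and the fusion clamp were the largest group by reads. Of 9 unigenes 7 were higher in pupae, 1 was lower and 1 was neither, and their summed reads went from 290 to 819, 3.35-fold higher (2.92 to 3.84). Complexin, which binds the SNARE bundle and both restrains and promotes fusion, had 12 and 110 reads on Unigene109463_FOB. Its level was 21.7 RPKM and 235 RPKM, the highest pupal level among the synaptic members, and its fold was 10.9 (5.98 to 21.7). Its database match was weak, with an E-value of 2.21e-06 over a unigene of 254 bases.

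Synaptotagmin was met in 8 unigenes with 8 different best matches, of which 6 were higher, 1 lower and 1 neither. The 8 summed to 278 and 709 reads, a fold of 3.02 (2.63 to 3.485). The unigene named synaptotagmin I, a name given to the calcium sensor of fast release, had 5 and 63 reads, or 6.70 and 100.1 RPKM. An unnumbered synaptotagmin had 11 and 74 reads, 7.97-fold higher (4.21 to 16.7), and another had 3 and 14, 5.53-fold higher (1.54 to 30.0).

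The unigene with the most synaptotagmin reads was named synaptotagmin-10, a form known in mouse as a calcium sensor for the secretion of insulin-like growth factor. On Unigene156923_FOB it had 30 and 217 reads, 8.57-fold higher (5.84 to 13.02), and its match was strong, with an E-value of 1.49e-161. Reads covered 62.2% of its length in prepupae and 96.7% in pupae. Synaptotagmin 4, which in Drosophila acts in release from the postsynaptic side, was met in 2 unigenes under that number. The unigene named synaptotagmin-4 had 40 and 154 reads, 4.56-fold higher (3.21 to 6.64), and that named synaptotagmin IV had 38 and 87, 2.71-fold higher (1.83 to 4.09).

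The remaining pair did not share this direction. Synaptotagmin-15, known in mammals as a form that does not bind calcium, had 123 and 99 reads, a fold of 0.954 (0.725 to 1.25), which was 1.26 under TMM scaling and 1.34 after centring. The unigene named Synaptotagmin-1 from the ant Harpegnathos saltator had 28 prepupal reads and 1 pupal read, 23.6-fold lower (3.91 to 966), with 53.3% and 4.16% of its length covered. Its E-value was 1.16e-28 and that of synaptotagmin I 3.31e-39, over unigenes of 1177 and 342 bases and against different proteins. Neither the names nor these E-values settle which of the 2 is the fast sensor, and this was not tested.

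Unigenes named for proteins of the vesicle itself went from 129 to 548 summed reads over 6 unigenes, 5.04-fold higher (4.15 to 6.15). A protein named only synaptic vesicle protein in the pea aphid matched Unigene151390_FOB, Unigene135866_FOB and Unigene124770_FOB, all far higher in pupae. Their reads were 20 and 250, 6 and 91, and 8 and 87, with folds of 14.8 (9.39 to 24.7), 17.98 (7.95 to 50.3) and 12.9 (6.26 to 30.8). In pupae their levels were 212, 132 and 155 RPKM, and in prepupae 14.3, 7.35 and 12.02. Summed, the 3 held 34 and 428 reads, 14.9-fold higher (10.5 to 21.8). Another unigene, matched to the protein of this name in Tribolium castaneum, had 3 and 0 reads, too few for a fold.

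Synapsin, which ties vesicles into a reserve pool, changed far less. Its 2 unigenes had 55 and 67 reads, 1.44-fold (0.996 to 2.10), and 37 and 53 reads, 1.70-fold (1.10 to 2.66), and neither was called without rescaling. Together they held 92 and 120 reads, 1.55-fold higher (1.17 to 2.05). The counting intervals of synapsin and of the 3 synaptic vesicle protein unigenes did not overlap. After centring, both synapsin unigenes passed the rule as higher.

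Bruchpilot, the scaffold of the active zone in Drosophila, matched 2 unigenes through 1 aphid protein, and both were higher. The longer had 26 and 61 reads, 2.78-fold higher (1.73 to 4.59), and the shorter had 1 and 5, 5.93-fold with an interval from 0.663 to 280. Their levels stayed low, at 7.14 and 19.9 RPKM and at 1.07 and 6.32 RPKM.

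Transporters that load vesicles with transmitter were mostly higher, with 8 of 10 unigenes higher and 1 lower, and 119 and 198 reads in sum, 1.97-fold higher (1.56 to 2.50). The vesicular amine transporter, which fills vesicles with dopamine, serotonin or octopamine, matched 3 unigenes. The ant-matched one had 4 and 24 reads, 7.11-fold higher (2.44 to 28.2). Of the 2 others, whose best match was a mammalian protein, one had 21 and 57 reads, 3.22-fold higher (1.92 to 5.59), and the other 39 and 42, 1.28-fold (0.806 to 2.03). The last had the highest prepupal level of all synaptic members, 95.6 RPKM, over a unigene of 187 bases.

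The vesicular acetylcholine transporter, which marks cholinergic neurons, the main excitatory neurons of the insect brain, had 2 and 7 reads. Its fold of 4.15 had an interval from 0.790 to 40.9, so the depth did not separate the stages. The vesicular glutamate transporter, which marks insect motor neurons among others, matched 6 unigenes that did not move together. Of 5 that shared 1 ant protein, the largest by reads had 25 and 45, 2.13-fold higher (1.28 to 3.63), and 3 with at most 6 reads in a library were also called higher. The other had 24 and 0 reads, 6.75-fold lower against a floor of 3 reads in the pupal library. A sixth, matched to a fluke protein, had 0 and 7 reads, 2.77-fold higher against the same floor in prepupae. The matches were weak to moderate, with E-values from 3.48e-29 to 1.65e-09 in the shared group, and whether these unigenes come from 1 gene was not tested.

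**Figure D2:**
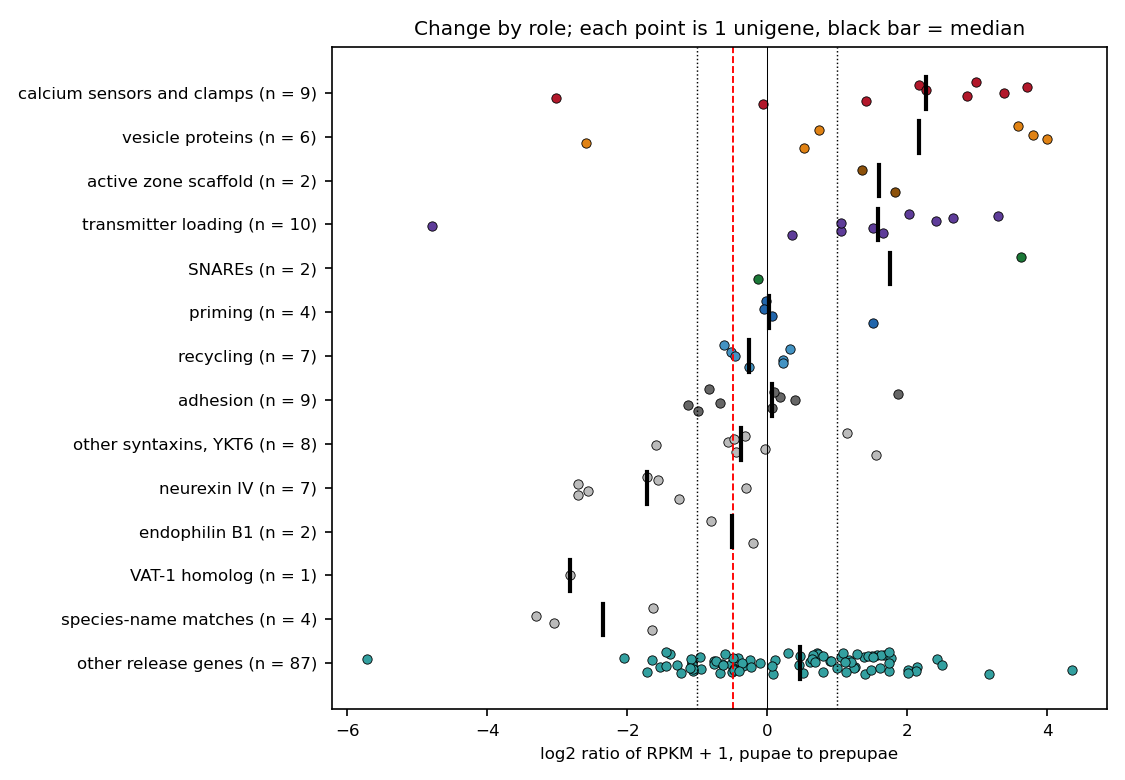
Log2 ratio of RPKM + 1, pupae to prepupae, with 1 point per unigene past the filter, grouped by role; coloured points are synaptic members, grey points members that name another protein, and the lowest line 87 other genes of the vesicle cycle. Black bars are medians, dotted lines the 2-fold rule and the red dashed line the median of all unigenes at −0.49; the medians of calcium sensors and vesicle proteins lie above 2, and those of priming, recycling and adhesion proteins between −0.26 and 0.07.

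Syntaxin-1A and the larger unigenes of the unc-13 family had intervals that included no change, while SNAP-25, with few reads, was called higher. Syntaxin-1A, the target-membrane SNARE of nerve endings (Unigene152386_FOB), had 65 and 50 reads, or 43.5 and 39.7 RPKM, a fold of 0.912 (0.618 to 1.34). Its match was strong, with an E-value of 1.26e-107, and 93.4% of its length was covered in each library. SNAP-25, its partner, matched 1 unigene with 0 and 5 reads, 1.98-fold higher against a floor of 3 reads in the prepupal library.

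The unc-13 family, which opens syntaxin for fusion, was met in 4 unigenes that summed to 148 and 128 reads, a fold of 1.03 (0.803 to 1.31). The main unc-13 unigene, Unigene157314_FOB, had 69 and 61 reads (18.8 and 19.7 RPKM), 1.05-fold (0.730 to 1.501). Munc13-3 had 41 and 34 reads, 0.983-fold (0.605 to 1.59), and unc-13-4A, from a separate branch of the family, 37 and 30, 0.961-fold (0.573 to 1.599). The fourth had 1 and 3 reads. None of these 3 intervals reached the folds of complexin or the synaptic vesicle protein. Under TMM scaling the fold of the family was 1.35 and that of syntaxin-1A 1.20, and after centring 1.44 and 1.28, so these unigenes sat above the median of all unigenes.

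Of the 7 unigenes of recycling proteins, none was called higher or lower, and their log2 ratios lay between −0.63 and 0.32. Synaptojanin, the lipid phosphatase that strips the clathrin coat, held 83 and 58 reads over 4 unigenes, a fold of 0.828 (0.582 to 1.17). Its 2 larger unigenes had 36 and 25 and 35 and 21 reads. Endophilin A, which bends the membrane and recruits synaptojanin, held 67 and 55 reads over 3 unigenes, a fold of 0.973 (0.669 to 1.41). The whole group was at 0.893 (0.693 to 1.15) on the deposited scale, 1.18 under TMM scaling and 1.26 after centring.

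Adhesion molecules across the synaptic cleft were mixed. Neuroligin, the postsynaptic partner of neurexin, matched 8 unigenes, of which 1 was higher, 1 lower and 6 neither. Their sums of 218 and 163 reads gave a fold of 0.886 (0.719 to 1.09), which was above 1 under both rescalings. The 3 that shared 1 aphid protein had 73 and 34, 43 and 38, and 21 and 19 reads. The first of these was 1.81-fold lower (1.19 to 2.81) and was not called. Neuroligin-3 had 21 and 7 reads, 2.53-fold lower (1.04 to 7.05), and Neuroligin-4 had 45 and 50, 1.32-fold (0.863 to 2.02). A further unigene had 2 and 9 reads, 5.33-fold higher (1.10 to 50.7). Neuroligin-3 was the only lower call in this group and no longer passed the rule under TMM scaling or centring. Neurexin-1, the presynaptic partner, had 2 reads in each library.

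**Figure D3:**
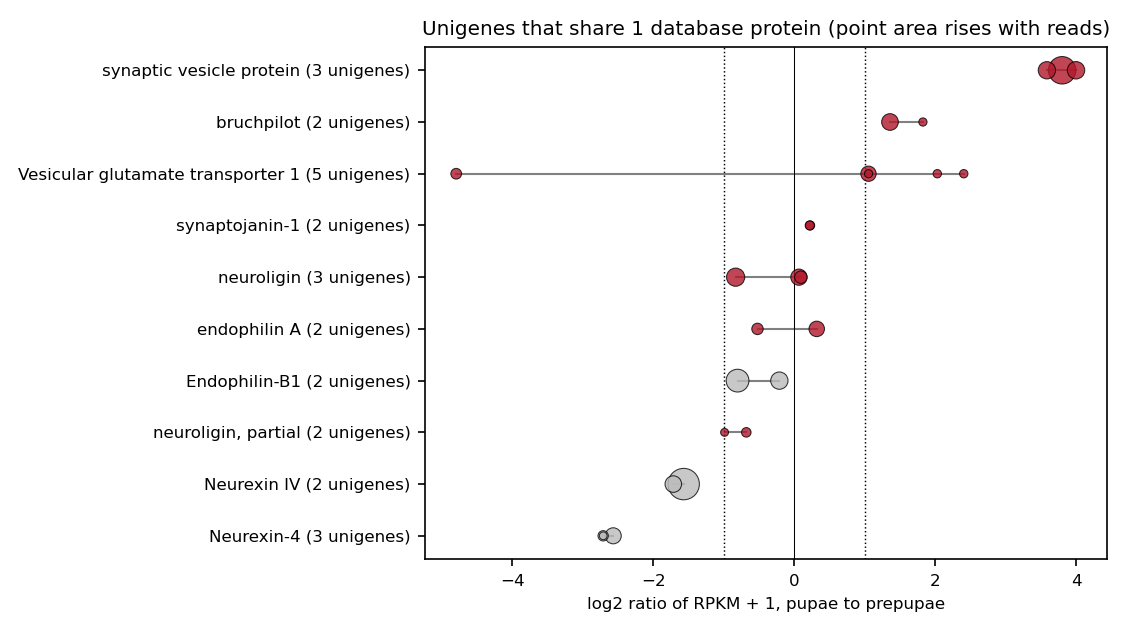
Log2 ratio of RPKM + 1, pupae to prepupae, of unigenes that share 1 database protein, with 1 line per protein, synaptic members in red and the others in grey. The 3 unigenes of the synaptic vesicle protein lie between 3.58 and 3.995, those of neurexin IV lie below −1, and the 5 of vesicular glutamate transporter 1 spread from −4.80 to 2.40.

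Members that named another protein were mostly lower or uncalled. Of the 22 past the filter, 2 were higher and 12 lower, or 9.1% and 54.5%, against 23.0% and 39.4% of all unigenes and 14.7% and 41.4% of those with a match. Their median was −1.41. Neurexin IV, an adhesion protein of the septate junctions that seal insect epithelia and nerve sheaths, had 6 of 7 unigenes lower and 457 and 112 reads in sum, 3.44-fold lower (2.79 to 4.27). Its largest unigene had 281 and 78 reads, 3.04-fold lower (2.36 to 3.96). The next by reads had 68 and 17, 3.37-fold lower (1.96 to 6.13), and the one after it, matched to an ant protein, 71 and 8, 7.49-fold lower (3.60 to 18.01). The 5 unigenes caught through the sponge name were matched to 4 ribosomal proteins and an actin-related protein, and held 24 and 0 reads. In sum they were 6.75-fold lower against a floor of 3 reads in the pupal library.

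SNAREs of other membrane traffic were 1.47-fold lower in sum (1.28 to 1.70), with 550 and 315 reads over 8 unigenes. This was a fold of 0.893 under TMM scaling and 0.954 after centring. Syntaxin-18, of the endoplasmic reticulum, had 172 and 47 reads, 3.09-fold lower (2.22 to 4.36), while syntaxin 17, of the autophagosome, had 135 and 77, 1.48-fold lower (1.11 to 1.98). Under TMM scaling and after centring the fold of syntaxin-18 was 0.426 and 0.455, and that of syntaxin 17 was 0.890 and 0.95. Syntaxin 16, of the Golgi, had 9 and 23 reads, 3.03-fold higher (1.35 to 7.44), and a second unigene of that number 3 and 6. A syntaxin-like protein with 101 and 83 reads had a fold of 0.974 (0.720 to 1.32). Its name gives no membrane, so its place in this group was not settled by the match. Endophilin B1, which acts on mitochondrial and autophagic membranes, had 176 and 98 reads over 2 unigenes, 1.52-fold lower (1.18 to 1.96). Its fold was 0.868 under TMM scaling and 0.927 after centring. The VAT-1 homolog, an oxidoreductase-like protein first known from synaptic vesicles, had 19 and 2 reads, 8.01-fold lower (1.93 to 71.0).

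Other genes of the vesicle cycle, which the rule did not use, had 31 of 87 unigenes higher and 16 lower, a share of 35.6% and 18.4% against 23.0% and 39.4% over all unigenes. Their median log2 ratio was 0.47. The 15 further unigenes that the same names caught were assigned to other proteins, such as mitochondrial dynamin relatives, and were left out after they had been seen. Among those left out was a phosphatidylinositol-binding clathrin assembly protein with 66 and 74 reads. With all of them kept, 36 of 102 unigenes were higher and 22 lower, or 35.3% and 21.6%.

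Proteins that regulate exocytosis held most of the higher unigenes. Calcium-dependent secretion activator, which primes dense-core vesicles of neuropeptides and amines, had all 5 unigenes higher and 161 and 672 reads in sum, 4.95-fold higher (4.16 to 5.91). Its 2 largest unigenes had 64 and 242 and 48 and 222 reads. Rab3, the small GTPase of vesicles, had 38 and 102 reads, 3.18-fold higher (2.17 to 4.75). Unigenes named for a Rab3 regulator or a Rab3-interacting protein had 5 of 9 higher and none lower, with 481 and 717 reads, 1.77-fold higher (1.57 to 1.99). The higher ones were named RAB3A-interacting protein, Rab3il1 and rab3-GEF, and whether each acts on Rab3 in this species was not tested. The one with the most reads, rab3-GAP, had 109 and 153, 1.66-fold higher (1.29 to 2.15). Tomosyn, an inhibitor that occupies syntaxin, had 6 of 13 unigenes higher and none lower, with 195 and 348 reads, 2.12-fold higher (1.77 to 2.53). Piccolo, a scaffold of the vertebrate active zone, had 8 and 26 reads, 3.85-fold higher (1.69 to 9.85). Voltage-dependent calcium channels had 5 of 14 unigenes higher and 2 lower, and 301 and 491 reads, 1.93-fold higher (1.67 to 2.24). The largest of them was named type D and had 56 and 112 reads, 2.37-fold higher (1.71 to 3.33). Cacophony, the channel of fast release in Drosophila, had 17 and 18 reads in its largest unigene, 1.26-fold (0.610 to 2.59). No unigene named cacophony was called higher or lower. The calcium channels were taken by name, and which of them act at nerve endings was not tested.

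Endocytic proteins separated by name. Stoned, which retrieves synaptotagmin from the membrane, had all 3 unigenes higher, with 90 and 220 reads, 2.90-fold higher (2.26 to 3.75). Dynamin, which pinches off vesicles, had 4 of 8 unigenes higher and 3 lower. Its largest had 88 and 182 reads, 2.45-fold higher (1.89 to 3.20), and the next 42 and 81, 2.29-fold higher (1.56 to 3.40). Clathrin chains held 655 and 300 reads, 1.84-fold lower (1.604 to 2.12), the AP-2 adaptor complex 322 and 144, 1.89-fold lower (1.55 to 2.31), and intersectin with dynamin-associated protein 514 and 254, 1.71-fold lower (1.47 to 1.99). All of these 3 sums stayed below 1 under TMM scaling and after centring. The attachment proteins of NSF, which take the SNARE bundle apart, held 188 and 155 reads, a fold of 0.977 (0.785 to 1.22). Liprin, which assembles active zones, held 194 and 107, 1.53-fold lower (1.20 to 1.96). Its fold was 0.860 under TMM scaling and 0.919 after centring.

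Names spelled out in full escaped the choice of members, and 3 such names were looked up after the values had been seen. Synaptosomal-associated protein 25, which is SNAP-25 in full, had 59 and 93 reads (115 and 215 RPKM), 1.87-fold higher (1.33 to 2.64) and just short of the rule with a log2 ratio of 0.90. Regulating synaptic membrane exocytosis protein 2, the full name of a RIM protein, had 18 and 39 reads, 2.57-fold higher (1.44 to 4.77). Protein ROP, the Drosophila form of unc-18, matched 10 unigenes, 2 higher, 2 lower and 6 neither, with a median log2 ratio of −0.21. They held 382 and 471 reads in sum, 1.46-fold higher (1.27 to 1.68). The largest ROP unigene had 72 and 234 reads, 3.85-fold higher (2.95 to 5.09), and the next by reads 95 and 68. With these 12 unigenes added, 26 of 61 were higher and 6 lower.

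**Figure D4:**
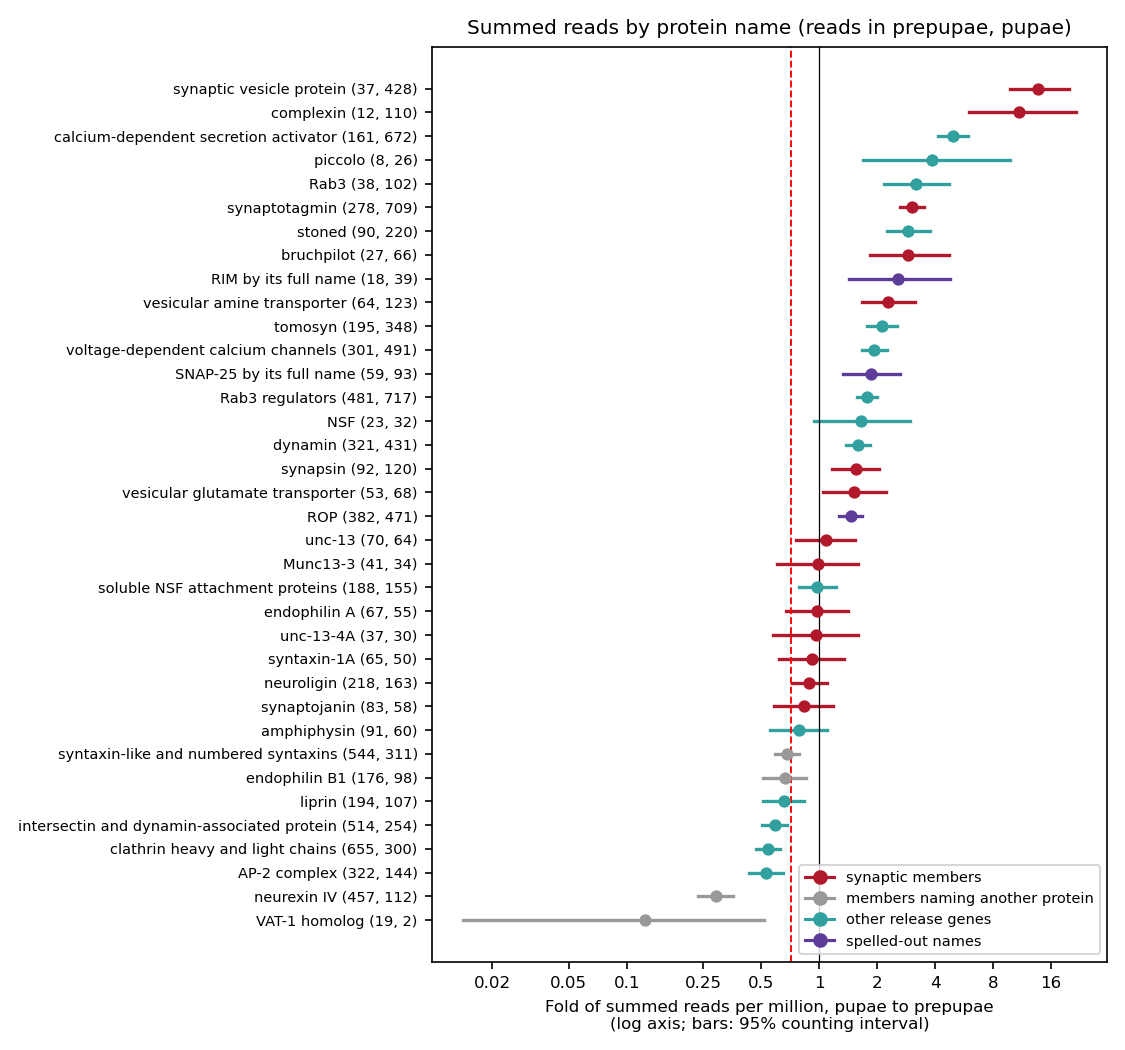
Fold of summed reads scaled to library totals, pupae to prepupae (log axis), with the 95% counting interval, for each protein name with at least 20 reads; reads in prepupae and pupae stand in brackets and the red dashed line is the median fold of all unigenes, 0.712. The synaptic vesicle protein at 13.7 and complexin at 10.9 stand at the top, syntaxin-1A, the unc-13 family and endophilin A lie at about 1, and neurexin IV and the VAT-1 homolog at the bottom.

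Markers of nerve cells and glia were read beside these values. Of 23 unigenes of 5 neuronal markers, 10 were higher, 2 lower and 11 neither. The shares higher and lower were 43.5% and 8.7%, against 23.0% and 39.4% of all unigenes. Futsch, a microtubule protein of axons, held 65 and 172 reads, 3.14-fold higher (2.35 to 4.24), and the para sodium channels 38 and 107, 3.34-fold higher (2.29 to 4.97). Neuroglian, which also sits in epithelial septate junctions, held 774 and 303 reads, 2.16-fold lower (1.89 to 2.47). Because of it the neuronal sum was 900 and 607 reads, a fold of 0.800 that turned to 1.05 under TMM scaling and 1.12 after centring. An Appl-like protein had 22 reads in each library, a fold of 1.19 (0.626 to 2.24). An ELAV-like protein had 1 and 3 reads, and choline acetyltransferase matched no unigene. Glial markers had 1 of 9 unigenes higher and 1 lower, or 11.1% each, with 418 and 413 reads. Among them the excitatory amino acid transporter held 75 and 124 reads, 1.96-fold higher (1.46 to 2.65), and draper 314 and 267, 1.01-fold (0.853 to 1.19). The names repo, glial cells missing and moody matched none. In bulk RNA, more nerve cells and more RNA per nerve cell cannot be told apart, and the share of nerve cells or photoreceptors in the differences above was not tested.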

How the data were processed

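The values are the authors' deposited tables, 1 per library. Per the file headers, they give the count of uniquely assigned reads per unigene, its length, the percent of the length covered and RPKM. Aligner, assembler and database versions: not given in the sources used here. Only reads with a single unigene entered the tables, so near-identical copies may have lost reads.

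The deposited counts summed to the totals in the headers, and recomputed RPKM matched the deposited RPKM within a relative tolerance of 1e-06. The tables were joined on the unigene, and 0 reads were entered for a unigene that 1 table lacked, since each lists those with at least 1 read. A floor of 3 reads is 1.37 RPM (reads scaled to library size) in prepupae and 1.63 in pupae. Folds against 0, called bounds here, put this floor in place of the 0. They take the reads of the other library as counted, without their counting error. Where both libraries held at most 3 reads no fold was computed. Intervals cover counting error only, and folds against the floor have no interval. Filters, the pseudocount of 1 and the 2-fold rule are given with the results. Python 3.11.15 with scipy 1.17.1 was used, and edgeR 4.0.16 for TMM factors only; fold and interval code was tested on simulated data. Members, lists and roles were chosen with earlier results of these data known. Any member could be named, those with at least 20 reads by role and the others by count or where a class needed them; other release genes were limited to 2 per protein name. Sequences of the unigenes were not used here.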

Additional observations from a re-analysis of the deposited data

How the results depend on the processing

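With a pseudocount of 0.1 or 5, or with no filter on low values, 19 to 25 of the 72 members were higher and 12 to 17 lower, and the median stayed above 0. No paired analysis was possible because each stage has 1 library. The number lower fell from 16 to 10 at a mean RPKM of at least 5, to 4 without members that name another protein and to 6 for the synaptic members with spelled-out names. The numbers higher and lower were 12 and 4 with at least 50 reads, 9 and 6 at 500 bases or longer, and 15 and 9 with an E-value of at most 1e-20; these settings keep fewer unigenes. The summed fold of 1.31 moved to 1.72 under TMM scaling, 1.84 after centring, 2.16 without members that name another protein and 1.99 with spelled-out names. The median of 0.06 moved to 0.555 after centring, and it was −0.024 with 1 unit per database match and −0.030 with an E-value of at most 1e-20. Centring gave the synaptic members 25 higher and 3 lower, and TMM scaling 24 and 3. With 0-read members at their bound the median was 0.079, and 0.74 for the synaptic members. Of 45 named members, 2 under TMM scaling and 6 after centring left their counting interval. The settings for the species name, the shared match, the E-value, the spelled-out names and the bound were chosen after seeing the data, and so was which members name another protein. Depth limits members under 20 reads.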
